A study of Homo sapiens with 12 samples.

Results

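The genes described here are 40 genes of the G2 phase and mitosis: the cyclins and kinases that start mitosis, the spindle checkpoint, the kinetochore, the kinesin motors of the spindle, and the proteins that end division. They were taken by name from the deposited table of 58735 genes, and all 40 were found there once. No measured value was part of the rule, but the genes, lists and roles were chosen with earlier results of these data known. All 40 also passed the filter on low counts that left 20821 genes for testing. Genes of this kind are transcribed in waves, late in the cell cycle, from promoters bound by the MuvB proteins together with B-MYB and FOXM1, and are held down in resting cells by the DREAM complex. Cyclin B with CDK1 drives entry into mitosis, the kinases PLK1 and the Aurora kinases build the spindle, the checkpoint holds the cell until every kinetochore is attached, and the anaphase-promoting complex with CDC20 then destroys securin and cyclin B. In leukemia cells in culture most cells cycle, so these transcripts are normally plentiful, and they fall as red cell precursors leave the cycle at the end of maturation.

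The libraries came from K562, an established human erythroleukemia line with the fusion kinase BCR-ABL1, which makes fetal and embryonic globins when induced. Nilotinib is an inhibitor of the ABL kinase that was given at 0.1 µM, and hemin, the oxidised form of heme and an inducer of erythroid maturation, was given at 50 µM. There were 4 groups of 3 biological replicates: mock DMSO and mock nilotinib, with 0 h of hemin, and hemin DMSO and hemin nilotinib, with 24 h of hemin, where DMSO is the solvent alone. Per the study's methods, nilotinib or DMSO was given 24 h ahead of hemin, and the collection times named for such cultures are 0 and 24 h. For the sequenced mock cultures in particular the time is not given. If they were collected when hemin was added, a hemin library also differs from a mock library by 24 h of further culture. Hemin nilotinib then also differs from mock nilotinib by a longer time since nilotinib was given. Hemin cannot be told apart from these added times in any comparison of hemin with mock or in the interaction. One line stands behind every sample, so the tests measure the spread between cultures of K562 only. In bulk RNA, fewer cells in mitosis and less RNA per cell cannot be told apart.

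Total counts lay between 33457078 and 50506990 per library. The erythroid genes GATA1, TAL1, LMO2, HBG1, HBG2, TFRC, KLF1 and NFE2 were all detected, at a summed 1587 to 2473 CPM (counts per 1000000, scaled between libraries by TMM) in mock DMSO, 6689 to 7937 in mock nilotinib, 992 to 1167 in hemin DMSO and 4400 to 7537 in hemin nilotinib. The sum in hemin DMSO lay under that of mock DMSO, without overlap. Such a sum weighs the most abundant genes most and does not give the direction of each of the 8 genes. CDKN2A and CDKN2B, which K562 lacks, had 0 counts in all 12 libraries. The lymphoid markers CD3E, MS4A1 and CD79A, all 3 myeloid, all 3 epithelial and both fibroblast markers had counts in at least 1 library. In the order mock DMSO, mock nilotinib, hemin DMSO, hemin nilotinib, their summed levels were 0.115 to 0.358, 0.253 to 0.346, 0.429 to 0.893 and 0.201 to 0.677 CPM for these 3 lymphoid genes. They were 25.4 to 37.6, 2.99 to 4.29, 29.5 to 43.7 and 2.10 to 3.50 CPM for the myeloid list, 221 to 259, 181 to 272, 136 to 194 and 145 to 179 CPM for the epithelial list, mostly KRT19, and 8.53 to 14.0, 13.0 to 22.7, 24.1 to 31.1 and 9.37 to 22.5 CPM for the fibroblast list. The mitochondrial share of counts was 1.45 to 2.88% in hemin DMSO and 5.20 to 8.83% in the other 9 libraries. The part of these differences in the results below was not tested. Within hemin nilotinib, replicate 3 stood apart: the 40 genes summed to 4831 CPM there and to 6260 and 6336 CPM in replicates 1 and 2. Replicate 3 also had the lowest sum in mock nilotinib (4210 CPM, with 4623 and 4649 in replicates 1 and 2). The same held in hemin DMSO (3937 CPM, with 4493 and 4387) but not in mock DMSO (4874 CPM, with 5109 and 4817).

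The promoters of genes of this kind carry a cell cycle homology region (CHR), the site of MuvB, and boxes read by the factor NF-Y. RefSeq promoters (GRCh38.p14, 250 bases before to 50 after the first start listed for a gene) were at hand for 33 of the 40 genes. On either strand, the CHR letters TTTGAA or TTCGAA occurred in 23 of the 33 (69.7%) and in 16.6% of all 27305 promoters of that length. The box CCAAT occurred in 25 of the 33 (75.8%) and in 35.7% of all, and both motifs in 19 (57.6%) and in 6.58% of all. The word TTCGAA reads the same on both strands and was counted once per position, and a match could share letters with a neighbouring match of either motif. With every listed start of a gene taken, the CHR letters occurred in 25 of the 33 and in 19.5% of all genes. The 5 promoters below were chosen after the values were seen, as examples of genes that went opposite ways in the comparisons below: CCNB2 and KIF20A rose and PLK1 fell with nilotinib under hemin, and SPC24 fell while NDC80 rose with hemin. Each runs 5′ to 3′ on the gene's strand from 220 bases before to 30 bases after the start, with CHR words and CCAAT (or ATTGG, the same box on the other strand) in capitals.
CCNB2, chr15:59104926-59105175, + strand: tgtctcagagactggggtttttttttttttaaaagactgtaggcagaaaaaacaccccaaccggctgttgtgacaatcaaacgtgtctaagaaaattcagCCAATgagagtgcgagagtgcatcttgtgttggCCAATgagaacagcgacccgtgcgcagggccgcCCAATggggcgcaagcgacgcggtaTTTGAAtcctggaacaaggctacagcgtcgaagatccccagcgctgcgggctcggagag
KIF20A, chr5:138178892-138179141, + strand: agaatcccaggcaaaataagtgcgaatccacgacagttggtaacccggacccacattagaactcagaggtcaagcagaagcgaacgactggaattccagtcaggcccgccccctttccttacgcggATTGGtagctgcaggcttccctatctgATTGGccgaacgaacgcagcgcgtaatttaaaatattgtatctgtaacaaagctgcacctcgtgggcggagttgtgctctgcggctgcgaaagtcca
PLK1, chr16:23678669-23678918, + strand: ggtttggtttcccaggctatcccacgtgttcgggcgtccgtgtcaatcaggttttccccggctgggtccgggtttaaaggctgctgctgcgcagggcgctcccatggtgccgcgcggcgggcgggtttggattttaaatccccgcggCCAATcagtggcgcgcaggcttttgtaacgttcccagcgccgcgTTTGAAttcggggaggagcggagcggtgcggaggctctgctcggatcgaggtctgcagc
SPC24, chr19:11155753-11156002, - strand: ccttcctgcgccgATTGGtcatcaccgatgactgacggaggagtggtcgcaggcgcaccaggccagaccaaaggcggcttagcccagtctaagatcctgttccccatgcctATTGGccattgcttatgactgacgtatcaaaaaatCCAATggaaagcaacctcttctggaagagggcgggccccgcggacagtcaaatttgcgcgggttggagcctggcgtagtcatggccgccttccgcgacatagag
NDC80, chr18:2571337-2571586, + strand: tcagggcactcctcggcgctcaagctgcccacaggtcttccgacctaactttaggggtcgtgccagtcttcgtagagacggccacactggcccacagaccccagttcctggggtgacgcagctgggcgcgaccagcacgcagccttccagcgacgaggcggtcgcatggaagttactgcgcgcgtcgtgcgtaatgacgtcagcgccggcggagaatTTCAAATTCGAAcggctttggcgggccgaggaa

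The CCNB2 window holds 3 boxes spaced 33 bases apart and a CHR word 29 bases before the start, and PLK1 holds 1 box and a CHR word at the same distance. KIF20A holds 2 boxes and no CHR word. SPC24 holds 3 boxes and no CHR word, and NDC80 holds 2 CHR words at the start and no box. Among the 33 genes, 20 had a CHR word between 60 bases before and 50 after the start, and 21 had a box between 120 and 40 bases before it. In the comparison of nilotinib with solvent under hemin, described below, 16 of the 23 genes with a CHR word rose and 1 fell, and 6 of the 10 without it rose, where 32.4% of all tested genes rose and 31.8% fell. Of the 25 genes with a box 18 rose and 1 fell there, and 4 of the 8 without it rose. The median log2 fold change there was 0.65 with a CHR word and 0.43 without, and 0.68 with a box and 0.31 without. The median difference of the nilotinib effect with hemin less that without was 0.67 on the log2 scale for the genes with a CHR word and 0.73 for those without. For the box it was 0.75 with and 0.45 without. None of these splits was tested. The matches are letters only and say nothing of whether a factor was bound in these cells.

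**Figure D1:**
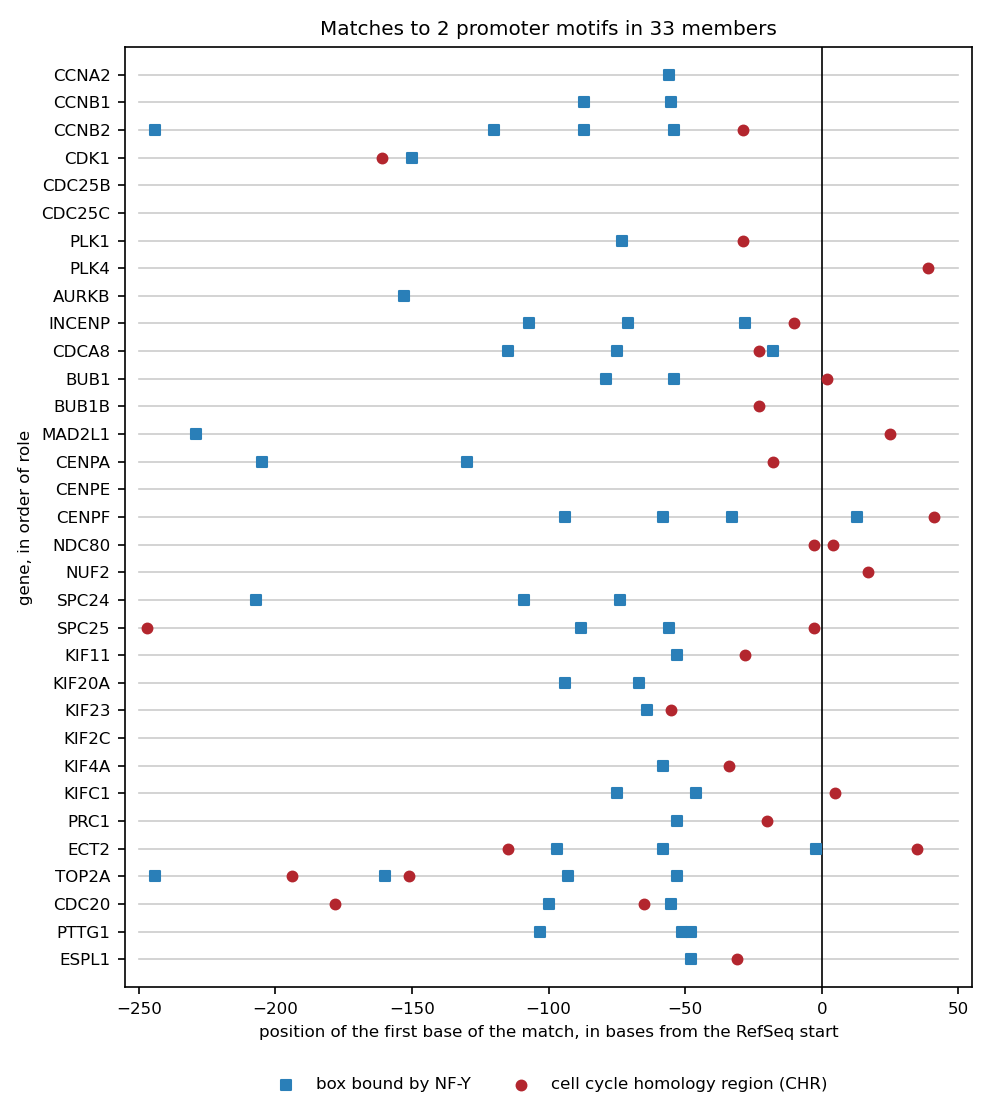
Positions of the CHR words (red circles) and of the NF-Y box (blue squares), in bases from the RefSeq start (vertical line), for the 33 genes with a promoter, ordered by role. Most CHR words lie close to the start and most boxes upstream of it: 20 genes have a CHR word between -60 and 50 and 21 have a box between -120 and -40.

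Per length, the 40 genes were well expressed before any treatment. In mock DMSO their median was 20.7 FPKM (fragments scaled by gene length and library size, as deposited), and the median of all tested genes was 2.0 FPKM. TOP2A, the topoisomerase that untangles sister chromosomes, led at 114 ± 0.439 FPKM (SD, n = 3), followed by the spindle assembly factor TPX2 at 80.0 ± 1.39 FPKM. At the other end, UBE2C, the ubiquitin-conjugating enzyme of the anaphase-promoting complex, was at 0.612 FPKM and the midzone protein PRC1 at 0.683 FPKM, and the other 38 genes were above 1 FPKM. UBE2C was counted at 6 to 283 and PRC1 at 122 to 460 counts per library, and no library held fewer than 455 counts of any other of the 40. In the GENCODE annotation 57.6% of the exon bases of PRC1 also belong to AC068831.7 on the same strand, so its reads could be split between both genes, while UBE2C overlapped no other gene. The counting tool and its strand setting are not given in the sources used here, so whether counts this low give the level of UBE2C and PRC1 is uncertain.

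**Figure D2:**
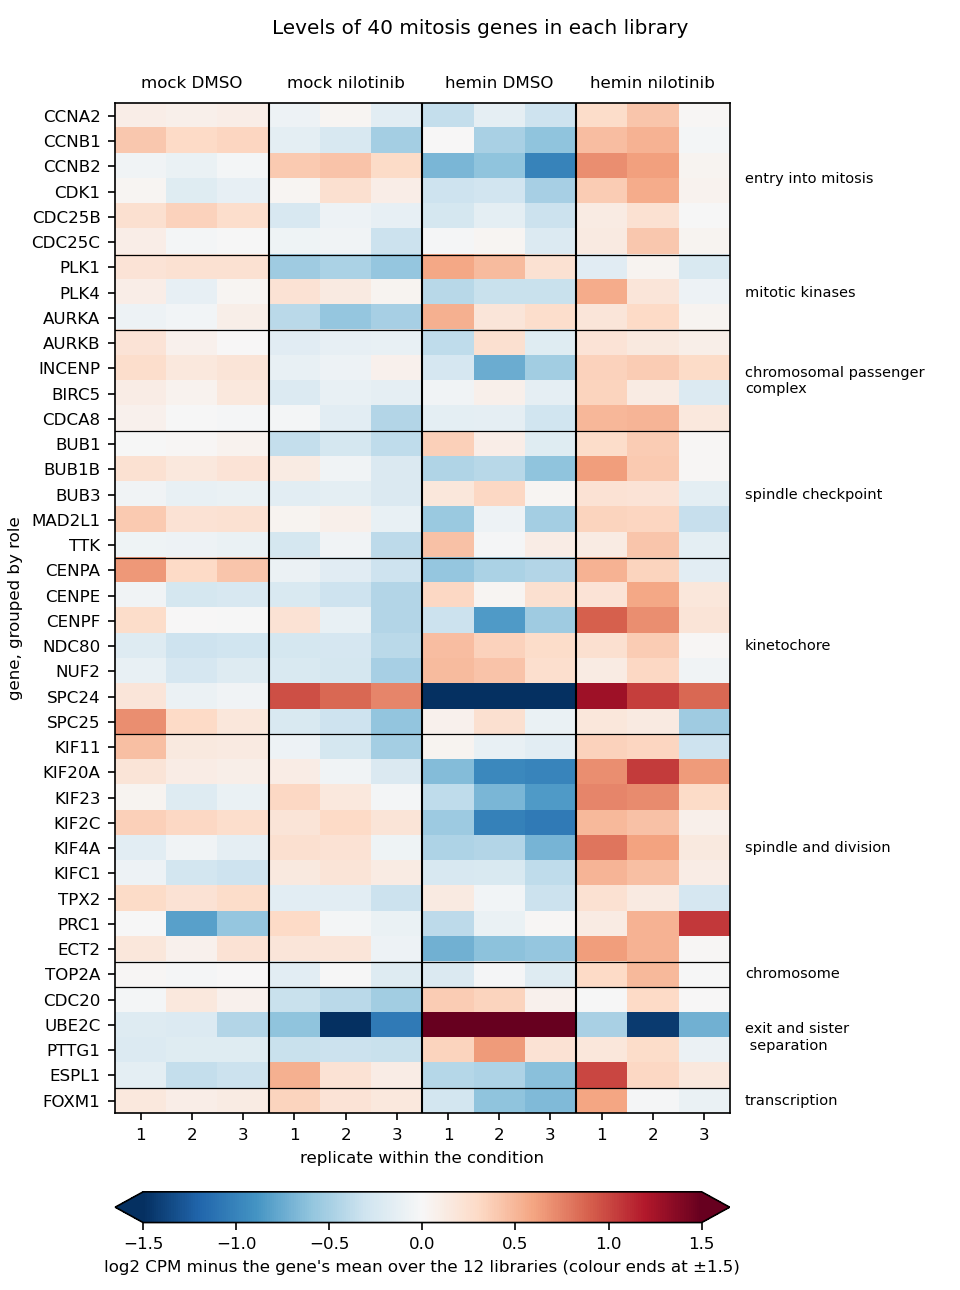
Level of each of the 40 genes in each of the 12 libraries, as log2 CPM minus the gene's mean over all libraries (red above, blue below, colours ending at ±1.5), with genes in rows by role and the 3 replicates of each condition side by side. Hemin DMSO is blue for most kinesins and for SPC24, red for UBE2C, and hemin nilotinib is red for most genes but paler in replicate 3, where the 40 genes sum to 4831 CPM.

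The comparison of hemin nilotinib with hemin DMSO asks what the inhibitor did to mitosis genes in cells that also received hemin. Of the 40 genes, 23 rose, 2 fell and 15 did not pass, by edgeR's quasi-likelihood test with a Benjamini-Hochberg adjusted p under 0.05 over all genes tested. In this comparison 64.2% of all tested genes were called, 32.4% higher and 31.8% lower and the share of the 40 that was called, 62.5%, was no higher. The median log2 fold change was 0.50 over the 40 and 0.02 over all genes tested. The groups did not overlap for 22 genes that were higher and 2 that were lower, and 63.5% of all genes did not overlap. Among the roles with more than 1 gene the median was highest for the spindle and division, at 1.05 with 7 of 9 genes higher, and next for entry into mitosis, at 0.59 with 5 of 6 higher. The widest ranges were those of the genes of exit and sister separation, from -3.42 to 1.04, and of the kinetochore, from -0.25 to 2.98.

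Among the genes of mitotic entry, CCNB2 (B-type cyclin, chr15:59105078-59125045) was at 57.0, 60.3 and 45.6 CPM in hemin DMSO and at 148, 140 and 94.1 CPM in hemin nilotinib. Its groups did not overlap, and it rose by 1.23 ± 0.16 on the log2 scale (SE, adjusted p = 4.96e-06). CDK1, the partner kinase of both B cyclins (chr10:60778331-60794852), was at 181, 185 and 159 CPM with DMSO and at 292, 331 and 233 CPM with nilotinib. Every nilotinib library was above every DMSO library, a rise of 0.71 ± 0.14 (adjusted p = 0.000357). CCNB1 (chr5:69167010-69178245) went from 113, 80.1 and 74.2 to 156, 161 and 111 CPM. Its lowest nilotinib library, replicate 3, lay under the highest DMSO library, and the rise of 0.68 ± 0.17 passed (adjusted p = 0.00256). CCNA2, the cyclin of S and G2 phases, rose by 0.51 ± 0.13 and CDC25B, a phosphatase that activates CDK1, by 0.36 ± 0.11. CDC25C, a second such phosphatase, was among the genes that did not pass.

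The kinases went separate ways. PLK1 (chr16:23677656-23690367), which acts on centrosomes, kinetochores and cytokinesis, was at 233, 218 and 183 CPM in hemin DMSO and at 139, 161 and 133 CPM in hemin nilotinib. It fell in every library, without overlap, by 0.55 on the log2 scale (SE 0.12, adjusted p = 0.00104), against the direction of most of the 40. Opposite-strand genes cover 12.5% of its exon bases. PLK4, the kinase of centriole duplication, was among the genes that rose, and AURKA, the Aurora kinase of the spindle poles, stood at 158, 124 and 131 CPM with DMSO and at 124, 134 and 113 CPM with nilotinib. The AURKA groups overlapped, and its log2 fold change of -0.16 ± 0.13 did not pass (adjusted p = 0.283).

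In the chromosomal passenger complex, which corrects wrong attachments of chromosomes to the spindle, 2 of 4 genes rose. AURKB, the kinase, was at 63.5, 98.0 and 72.9 CPM with DMSO and at 95.1, 91.8 and 88.1 CPM with nilotinib, and its log2 fold change of 0.23 ± 0.14 did not pass (adjusted p = 0.162). Without hemin DMSO replicate 2, its highest library, it was 0.43 and passed (adjusted p = 0.00572). INCENP, the scaffold, rose by 0.83 ± 0.13 (adjusted p = 3.63e-05) and CDCA8, borealin, by 0.59 ± 0.13 (adjusted p = 0.00107), while BIRC5, survivin, did not pass. Of the 5 checkpoint genes, BUB1B, the BUBR1 protein that binds CDC20 (chr15:40161023-40221136), went from 62.0, 63.5 and 55.9 to 131, 111 and 86.3 CPM. All 3 nilotinib libraries were above all 3 DMSO libraries, a rise of 0.86 ± 0.14 (adjusted p = 8.48e-05). A readthrough gene, BUB1B-PAK6, covers 10.2% of the BUB1B exon bases on the same strand. MAD2L1, another CDC20 inhibitor, rose by 0.50 ± 0.17 (adjusted p = 0.0183), and BUB1, BUB3 and the kinase TTK did not pass.

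At the kinetochore, SPC24 (chr19:11131520-11155808), a subunit of the NDC80 complex that holds microtubules, showed the largest rise of the 40. It was at 17.0, 14.5 and 13.4 CPM in hemin DMSO and at 137, 116 and 103 CPM in hemin nilotinib. That is a log2 fold change of 2.98 ± 0.15 (adjusted p = 2.33e-10), and no library of one group came near the other. The corona protein CENPF (chr1:214603195-214664588) was at 160, 111 and 139 CPM with DMSO and at 374, 324 and 228 CPM with nilotinib. It rose by 1.18 ± 0.20 (adjusted p = 7.95e-05), again without overlap, and CENPA, the histone H3 variant of centromeres, rose by 0.75 ± 0.17 (adjusted p = 0.000873), with 7.0% of its exon bases shared with SLC35F6 on the same strand. Of the other subunits of the NDC80 complex, NUF2 was at 88.7, 85.7 and 75.7 CPM with DMSO and at 69.5, 78.9 and 61.5 CPM with nilotinib, which did not pass (log2 fold change -0.25 ± 0.13, adjusted p = 0.0949) but passed as lower with limma on either FPKM scale. NDC80, SPC25 and the motor CENPE did not pass either.

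KIF20A (chr5:138178719-138187715), the kinesin that carries the passenger complex to the midzone, went from 40.1, 32.0 and 31.5 CPM in hemin DMSO to 101, 130 and 97.5 CPM in hemin nilotinib. Every nilotinib library was above every DMSO library, and the rise was 1.67 ± 0.15 (adjusted p = 8.33e-08), the second largest. KIF2C, the microtubule depolymerase MCAK (chr1:44739818-44767767), went from 156, 113 and 110 to 321, 309 and 241 CPM, a rise of 1.20 ± 0.15 (adjusted p = 4.43e-06) without overlap. KIF23, the motor of centralspindlin, rose by 1.22 ± 0.16, the chromokinesin KIF4A by 1.07 ± 0.15 and ECT2, which switches on RhoA at the cleavage furrow, by 1.05 ± 0.15. KIFC1 and PRC1 rose as well, and KIF11, the motor that pushes the poles apart (0.22 ± 0.17), and TPX2 (0.12 ± 0.15) did not pass. TOP2A went from 642, 732 and 650 to 916, 1039 and 740 CPM. Its groups did not overlap, replicate 3 lay nearest to the DMSO libraries, and the rise was 0.41 ± 0.14 (adjusted p = 0.0188).

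Of the genes that end mitosis, UBE2C (chr20:45812576-45816957) fell from 3.65, 6.73 and 7.18 CPM in hemin DMSO to 0.690, 0.357 and 0.584 CPM in hemin nilotinib. Here too the groups did not overlap. Its log2 fold change of -3.42 ± 0.40 (adjusted p = 1.64e-06) was the largest fall, at 119, 211 and 283 counts against 24, 13 and 25, and rests on the uncertain level of this gene. CDC20, the activator of the anaphase-promoting complex, was at 174, 168 and 140 CPM and then at 133, 164 and 134 CPM, which did not pass (-0.16 ± 0.13, adjusted p = 0.295). PTTG1, securin, did not pass either (-0.28 ± 0.13, adjusted p = 0.0653), though it passed as lower with DESeq2, with RLE or upper-quartile factors, with limma and without hemin DMSO replicate 3. ESPL1, the protease separase that securin holds back, rose. FOXM1 (chr12:2857681-2877155), the transcription factor of many of these genes, went from 39.0, 31.1 and 29.8 to 71.5, 46.7 and 44.2 CPM, a rise of 0.70 ± 0.17 (adjusted p = 0.00164). Its groups did not overlap, replicate 1 of hemin nilotinib lay far above the other nilotinib libraries, and without that library the rise was 0.46 (adjusted p = 0.00672). ITFG2 on the opposite strand covers 15.9% of the FOXM1 exon bases.

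**Figure D3:**
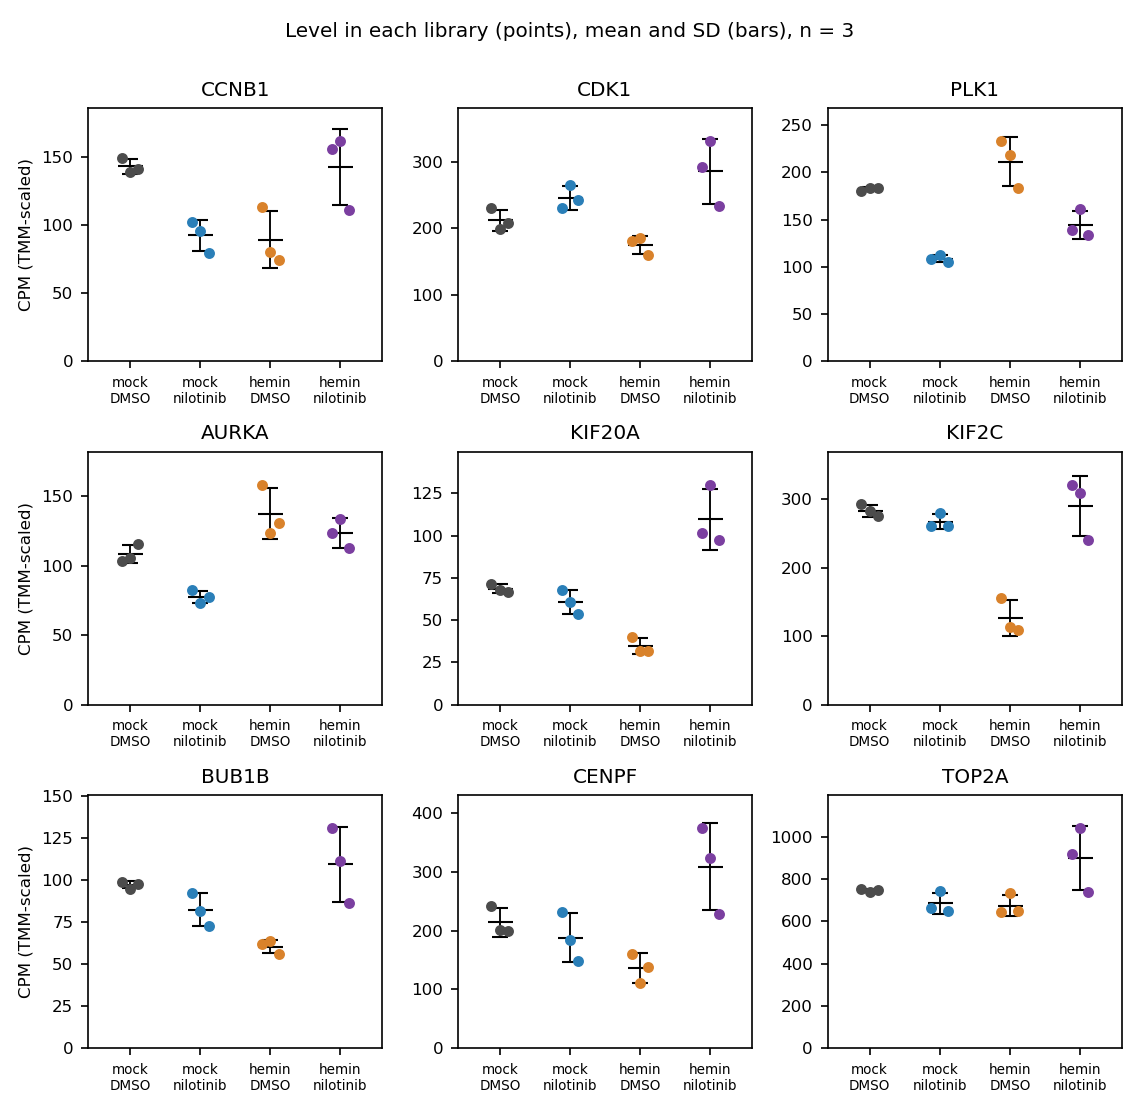
CPM of 9 of the genes in each library (points), with the group mean (horizontal mark) and SD (bars), n = 3 per group and every axis from 0. Hemin DMSO is lowest for KIF20A, KIF2C and BUB1B, PLK1 is lower with nilotinib than without it both with and without hemin, and hemin nilotinib replicate 3 is the lowest library of its group in all 9 panels.

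Leaving out 1 library ended 4 of the 25 calls. MAD2L1 lay at 0.40 to 0.42 and lost its call without hemin DMSO replicate 1 or 3 or hemin nilotinib replicate 1 or 2, TOP2A lay at 0.30 to 0.38 without hemin DMSO replicate 1 or 3 or hemin nilotinib replicate 2, CDC25B at 0.30 or 0.31 without hemin nilotinib replicate 2 or hemin DMSO replicate 3, and PRC1, with a range of 0.50 to 0.98, lost it without hemin DMSO replicate 1 or hemin nilotinib replicate 3. With the 6 libraries of the comparison alone MAD2L1, TOP2A and CDC25B did not pass, nor did MAD2L1 with limma on either FPKM scale or PRC1 with limma on log2(FPKM + 0.1).

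In cells that had received no hemin, most of the 40 genes did not pass. Comparing mock nilotinib with mock DMSO, 4 of the 40 rose, 9 fell and 27 did not pass, where 42.5% of all tested genes were called, 20.7% higher and 21.8% lower, so that the share of the 40 that fell was near that of all genes. The median was -0.16 over the 40 and 0.0039 over all genes tested, and no called change among the 40 reached 2-fold. The groups did not overlap for 5 genes that were higher and 21 that were lower, against 61% of all genes without overlap. The genes that fell were CCNB1, CDC25B, PLK1, AURKA, CENPA, SPC25, KIF11, TPX2 and CDC20, and those that rose were CCNB2, KIFC1, SPC24 and ESPL1. Of the genes called with nilotinib both with and without hemin, PLK1, CCNB2, KIFC1, SPC24 and ESPL1 went the same way and CCNB1, CDC25B and CENPA opposite ways.

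PLK1 was at 181, 183 and 183 CPM in mock DMSO and at 108, 112 and 105 CPM in mock nilotinib, so that each group was tight and far from the other. The fall was 0.75 on the log2 scale (log2 fold change -0.75 ± 0.12, adjusted p = 0.000139), beside 0.55 under hemin, and the test of the difference between both falls did not pass (0.20 ± 0.17, adjusted p = 0.413). AURKA went from 104, 106 and 116 to 82.3, 73.1 and 77.4 CPM without overlap, a log2 fold change of -0.48 ± 0.13 (adjusted p = 0.00546). CDC20 went from 131, 149 and 140 to 106, 101 and 93.1 CPM, also without overlap, with a log2 fold change of -0.48 ± 0.13 (adjusted p = 0.00674). All 3 of these transcripts were lower in every nilotinib library than in any DMSO library.

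CCNB1 and CCNB2, a pair of cyclins with the same partner, parted. CCNB1 went from 149, 139 and 141 to 102, 95.2 and 79.3 CPM, a log2 fold change of -0.63 ± 0.17 (adjusted p = 0.00712), and CCNB2 from 88, 85.5 and 89.1 to 120, 123 and 112 CPM, one of 0.43 ± 0.16 (adjusted p = 0.034). Neither pair of groups overlapped. CDK1 stood at 230, 199 and 207 and at 230, 265 and 242 CPM, and its difference of 0.21 ± 0.14 did not pass (adjusted p = 0.236). CDC25B fell by 0.43 (log2 fold change -0.43 ± 0.11, adjusted p = 0.00625).

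Within the kinetochore, SPC24 rose from 64.4, 53.3 and 54.7 to 111, 103 and 93.8 CPM, by 0.84 ± 0.14 (adjusted p = 0.00015), and its partner SPC25 went the other way, with a log2 fold change of -0.78 ± 0.19 (adjusted p = 0.00313). CENPA also fell (-0.65 ± 0.16, adjusted p = 0.00466). CENPF was at 242, 201 and 199 and at 232, 185 and 148 CPM and did not pass (-0.19 ± 0.20, adjusted p = 0.468). The 9 genes of the passenger complex and of the checkpoint lay between -0.36 and -0.09 and did not pass, among them AURKB (-0.23 ± 0.14) and BUB1B (-0.24 ± 0.14). BUB1 was nearest to the threshold (-0.36 ± 0.14, adjusted p = 0.0527) and passed with the replicate number as a block.

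Among the motors, KIF20A was at 71.7, 67.9 and 66.5 CPM in mock DMSO and at 68.1, 60.7 and 53.9 CPM in mock nilotinib, and KIF2C was at 293, 282 and 275 and at 261, 280 and 261 CPM. Both pairs of groups overlapped and neither passed (KIF20A -0.17 ± 0.14, adjusted p = 0.346, KIF2C -0.08 ± 0.15, adjusted p = 0.682). KIF11 (-0.53 ± 0.17) and TPX2 (-0.47 ± 0.15) fell, and KIFC1, the minus-end motor HSET, rose (0.37 ± 0.13). TOP2A (-0.12 ± 0.14) and FOXM1 (0.10 ± 0.17) did not pass, ESPL1 rose by 0.57 ± 0.18, and UBE2C was listed at 25, 6 and 16 counts against 47, 35 and 37, which did not pass (-0.89 ± 0.41, adjusted p = 0.0937).

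Leaving out single libraries ended 5 of these 13 calls. CCNB2 and KIFC1 lost theirs without any 1 of the 6 libraries, at 0.37 to 0.44 and 0.30 to 0.40, ESPL1 without mock DMSO replicate 2 or 3 or mock nilotinib replicate 1 or 2 (0.43 to 0.58), KIF11 without mock DMSO replicate 1 or mock nilotinib replicate 3 (-0.46 and -0.45), and TPX2 without mock nilotinib replicate 3 (-0.44, adjusted p = 0.0663). CCNB2 also did not pass with limma on either FPKM scale, nor KIFC1 with all genes of at least 1 count tested.

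**Figure D4:**
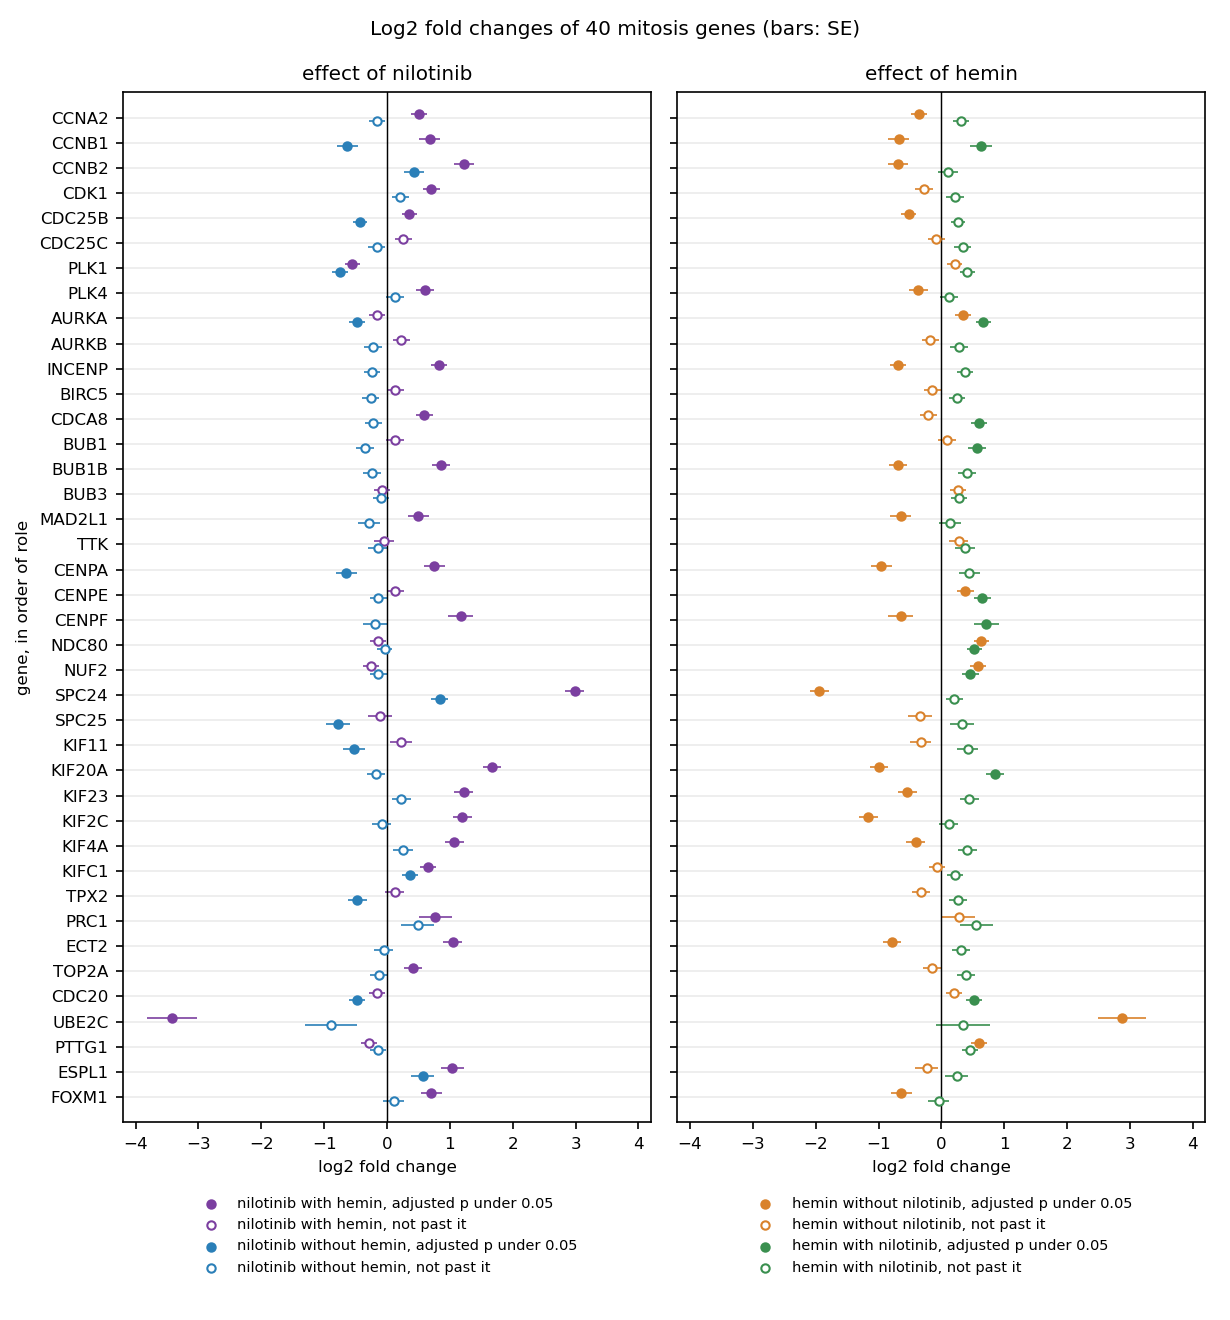
Log2 fold change (points) and SE (bars) of the 40 genes for nilotinib with and without hemin (left) and for hemin without and with nilotinib (right), filled where the adjusted p is under 0.05. With hemin the nilotinib points lie mostly right of 0 (23 called higher, 2 lower) and without hemin mostly left (4 higher, 9 lower), and SPC24 and UBE2C lie at the ends of the scale.

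The effect of hemin in the solvent control was the next comparison. Between hemin DMSO and mock DMSO, 17 of the 40 genes fell, 6 rose and 17 did not pass, where 53.6% of all tested genes were called, 25.7% higher and 27.8% lower. The median was -0.30 over the 40 and -0.05 over all genes. The groups did not overlap for 23 genes that were lower and 8 that were higher, against 62.7% of all genes. The genes that fell were CCNA2, CCNB1, CCNB2 and CDC25B of mitotic entry, PLK4, INCENP, BUB1B, MAD2L1, CENPA, CENPF, SPC24, FOXM1, and the spindle genes KIF20A, KIF23, KIF2C, KIF4A and ECT2. Those that rose were AURKA, CENPE, NDC80, NUF2, PTTG1 and UBE2C.

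Hemin DMSO was also the control of the first comparison, so the values of both comparisons share its 3 libraries. KIF2C was at 275 to 293 CPM in mock DMSO and at 110 to 156 CPM in hemin DMSO (log2 fold change -1.17 ± 0.15, adjusted p = 1.08e-05), and KIF20A at 66.5 to 71.7 and at 31.5 to 40.1 CPM (-0.99 ± 0.14, adjusted p = 3.23e-05). CENPA (-0.96 ± 0.17, adjusted p = 0.000157) and ECT2 (-0.79 ± 0.15, adjusted p = 0.000367) followed, and none of these 4 had overlapping groups. BUB1B and INCENP each fell (-0.69 ± 0.14 and -0.69 ± 0.13), as did CCNB2 (-0.69 ± 0.16), CCNB1 (-0.68 ± 0.17), CENPF (-0.65 ± 0.20), MAD2L1 (-0.65 ± 0.17), FOXM1 (-0.64 ± 0.17) and KIF23 (-0.54 ± 0.15). CDK1 (-0.28 ± 0.14), AURKB (-0.17 ± 0.14), TOP2A (-0.15 ± 0.14), PLK1 (0.21 ± 0.12) and CDC20 (0.20 ± 0.13) did not pass.

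Among the genes that rose, PTTG1 went from 74.2, 75.3 and 75.1 CPM in mock DMSO to 107, 133 and 99.4 CPM in hemin DMSO. Every hemin library was above the tight mock group, a log2 fold change of 0.60 ± 0.13 (adjusted p = 0.0011). UBE2C went from 0.845, 0.835 and 0.711 to 3.65, 6.73 and 7.18 CPM (2.87 ± 0.38, adjusted p = 1.09e-05). AURKA rose by 0.34 ± 0.13 and the kinetochore motor CENPE by 0.38 ± 0.14.

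The NDC80 complex joins NDC80 and NUF2 at the microtubule end with SPC24 and SPC25 at the centromere end, and was looked at as a whole after its values were seen. In FPKM, which allows levels of different genes to be compared, NDC80 was at 26.1, 24.3 and 24.3 in mock DMSO and at 42.6, 39.3 and 36.8 in hemin DMSO. NUF2 was at 17.1, 15.8 and 16.3 and then at 26.7, 25.9 and 22.4, and SPC24 at 22.2, 18.7 and 19.0 and then at 6.06, 5.20 and 4.71. So the first pair of subunits rose (log2 fold changes on counts of 0.64 ± 0.12 for NDC80, adjusted p = 0.000379, and 0.58 ± 0.13 for NUF2, adjusted p = 0.00128), SPC24 fell (-1.94 ± 0.15, adjusted p = 4.34e-08), and SPC25 did not pass (adjusted p = 0.138). The FPKM of SPC24 over that of NDC80 was 0.769 to 0.853 in mock DMSO, 0.128 to 0.142 in hemin DMSO, 1.43 to 1.55 in mock nilotinib and 1.03 to 1.34 in hemin nilotinib, and no 2 of the 4 groups overlapped. These ratios are of transcripts, and the amounts of the proteins were not measured.

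**Figure D5:**
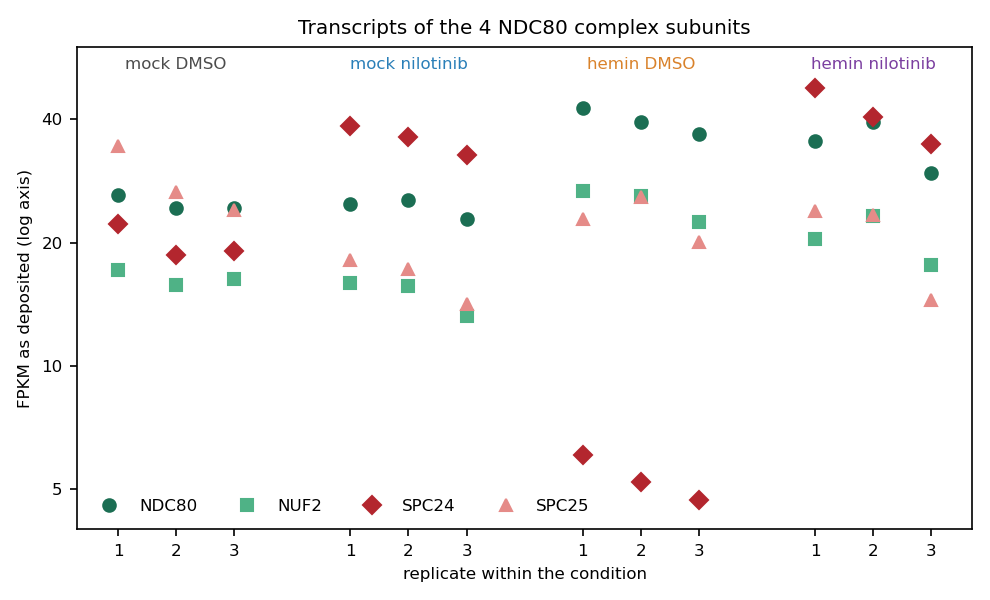
Deposited FPKM (log axis) of the 4 subunits of the NDC80 complex in each library, by condition. SPC24 (red diamonds) lies at 4.71 to 6.06 FPKM in hemin DMSO and at 18.7 or more in the other 9 libraries, while NDC80 (dark green circles) lies at 36.8 to 42.6 FPKM in hemin DMSO and at 24.3 to 26.1 in mock DMSO.

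The split of 6 higher and 17 lower moved with the scaling: it was 10 and 14 with upper-quartile factors and 4 and 28 with no composition factors, settings that moved the median of all genes by 0.12 and -0.24, and the median of the 40 less that of all genes stayed at -0.26 in both and was -0.25 here. Of all 20821 genes, 11156 were called here, 11078 with upper-quartile factors and 11459 with no composition factors. Leaving out 1 library ended the calls of CCNA2 (without mock DMSO replicate 2 or hemin DMSO replicate 1 or 3, -0.37 to -0.30), KIF4A (without the same libraries, -0.43 to -0.32), CENPF (without hemin DMSO replicate 2, -0.52, adjusted p = 0.0559), AURKA (without any mock DMSO library or hemin DMSO replicate 1, 0.24 to 0.35), CENPE (without any mock DMSO library or hemin DMSO replicate 1 or 3, 0.30 to 0.38) and PLK4 (without mock DMSO replicate 1 or 3 or any hemin DMSO library, with a range of -0.44 to -0.33). KIF4A and PLK4 also did not pass with DESeq2, with RLE or upper-quartile factors or with limma on either FPKM scale, and PLK4 not with only genes of at least 10 counts in every library. CCNA2 did not pass with RLE or upper-quartile factors, and AURKA and CENPE not with no composition factors (0.11 and 0.14) or with all genes of at least 1 count tested.

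Hemin was also compared in cells that had nilotinib throughout. Between hemin nilotinib and mock nilotinib, 10 of the 40 genes rose, 0 fell and 30 did not pass, where 5.8% of all tested genes were called, 3.52% higher and 2.28% lower. By edgeR's test 24 of the 40 had an unadjusted p under 0.05, for which the share of all genes was not counted. DESeq2 called 12 of the 40, all higher, and 1974 of all 20821 genes tested. The median was 0.37 over the 40 and 0.03 over all genes, and the groups did not overlap for 15 genes, all higher, against 23.3% of all genes. Of the 40 fold changes 39 were above 0, and the share of all genes above 0 was not counted. The genes that rose were CCNB1, AURKA, CDCA8, BUB1, CENPE, CENPF, NDC80, NUF2, KIF20A and CDC20. KIF20A changed most, from 53.9 to 68.1 CPM up to 97.5 to 130 CPM without overlap (log2 fold change 0.85 ± 0.14, adjusted p = 0.00404). CENPF rose by 0.71 ± 0.20 (adjusted p = 0.0431), AURKA by 0.67 ± 0.13 (adjusted p = 0.00782), CENPE by 0.65 ± 0.14 (adjusted p = 0.0137), CCNB1 by 0.63 ± 0.17 (adjusted p = 0.0416), CDCA8 by 0.60 ± 0.13 (adjusted p = 0.0182) and CDC20 by 0.52 ± 0.13 (adjusted p = 0.0286).

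AURKA, CENPE, NDC80 and NUF2 thus passed as higher with hemin both in the presence and in the absence of nilotinib. CDK1 (0.22 ± 0.14), AURKB (0.28 ± 0.14), BUB1B (0.41 ± 0.14), TOP2A (0.39 ± 0.14), PLK1 (0.41 ± 0.12, adjusted p = 0.0605) and FOXM1 (-0.04 ± 0.17) did not pass, and SPC24, at 93.8 to 111 CPM and then 103 to 137 CPM, did not either (0.21 ± 0.14, adjusted p = 0.418). Of the 10 calls, that of KIF20A held without any 1 library and the other 9 did not: 1 of the 40 genes was called without mock nilotinib replicate 2, without mock nilotinib replicate 3 or without hemin nilotinib replicate 2, and 16 were called without hemin nilotinib replicate 3. The log2 fold changes of those 9 genes stayed between 0.34 and 0.89 over these fits. With the replicate number as a block, 13 were called, the additions being PLK1 (0.41, adjusted p = 0.0450), KIF23 (0.44, adjusted p = 0.0379) and PTTG1. The block fit called 1587 of all genes and the main fit 1208. CCNB1 and NUF2 also lost the call without mock nilotinib replicate 1, BUB1 likewise, and CENPF without hemin nilotinib replicate 1. AURKA and KIF20A were the genes called with the 6 libraries of the comparison alone, and limma on either FPKM scale did not call CCNB1, BUB1, CENPF, NUF2 and CDC20. With no composition factors CCNB1, CENPF and NUF2 did not pass, and NUF2 did not with RLE factors or with all genes of at least 1 count tested.

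The interaction asks, gene by gene, whether nilotinib acted otherwise with hemin than without. The difference of its log2 effects passed for 19 of the 40 genes, 18 higher with hemin and 1 lower, where 30.1% of all tested genes were called, 17.1% higher and 13% lower. Its median was 0.56 over the 40 and 0.06 over all genes. By role, 7 of the 9 spindle genes, 4 of the 6 entry genes, 3 of the 7 kinetochore genes, 2 of the 4 passenger genes and 2 of the 5 checkpoint genes passed as higher, and UBE2C passed as lower. The difference was 2.15 ± 0.20 for SPC24 (adjusted p = 3.6e-06) and 1.84 ± 0.20 for KIF20A (adjusted p = 1.61e-05). For CCNB1, which fell with nilotinib alone and rose with nilotinib under hemin, it was 1.31 ± 0.24 (adjusted p = 0.000979), and for CENPA, which did the same, 1.40 ± 0.23 (adjusted p = 0.000431). None of the 3 kinases PLK1, PLK4 and AURKA passed, nor did CDK1 (0.49 ± 0.20, adjusted p = 0.0679), TOP2A (0.54 ± 0.20, adjusted p = 0.0557) or FOXM1 (0.60 ± 0.23, adjusted p = 0.0653).

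Of these 19 calls, 16 held without any 1 library. MAD2L1 (0.78) lost its call without mock nilotinib replicate 3, hemin DMSO replicate 1 or 3 or hemin nilotinib replicate 2 (0.68 to 0.76), KIF11 (0.75) without mock DMSO replicate 1, mock nilotinib replicate 2 or 3, hemin DMSO replicate 2 or 3 or hemin nilotinib replicate 2 (0.67 to 0.79), and TPX2 (0.59) without any 1 of 10 of the 12 libraries, the exceptions being hemin DMSO replicate 1 and hemin nilotinib replicate 3 (0.46 to 0.66). These 3 genes also did not pass with limma on either FPKM scale, KIF11 and TPX2 not with upper-quartile factors, and TPX2 not with DESeq2 or RLE factors. TOP2A and FOXM1, not called above, each passed under 6 of 21 alternatives, among them edgeR with the replicate block (adjusted p = 0.0375 and 0.0278). CDK1, PLK4 and AURKA passed with no composition factors. CDK1 and PLK4 also passed without hemin nilotinib replicate 3. Without that library 27 of the 40 passed as higher and 1 as lower, and 6775 of all genes were called.

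Further genes of the same pathways were counted from the same fit. The shares of all tested genes that rose and fell were 32.4% and 31.8% with nilotinib under hemin, 20.7% and 21.8% with nilotinib alone, 25.7% and 27.8% with hemin in DMSO, and 3.52% and 2.28% with hemin on top of nilotinib. Of 61 other G2 and mitosis genes, 35 rose and 5 fell with nilotinib under hemin, 10 rose and 7 fell with nilotinib alone, 10 rose and 21 fell with hemin in DMSO, and 8 rose with hemin on top of nilotinib. With nilotinib alone both counts of this list lie under the shares of all genes. In the first of these comparisons FAM83D (2.47) and the centromere protein CENPI (1.79) had the highest log2 fold changes of that list and CEP55 (-1.32) and CENPW (-0.94) the lowest. Of 13 S phase genes, 10 rose and 1 fell with nilotinib under hemin, and 2 rose and 9 fell with hemin in DMSO. With nilotinib alone 5 of them rose and 0 fell (median log2 fold change 0.41), and with hemin on top of nilotinib 0 rose and 1 fell. Of 17 genes of the anaphase-promoting complex and its regulators, 6 rose and 4 fell with nilotinib under hemin, near or under the shares of all genes, and 6 rose and 8 fell with hemin in DMSO. Of 19 MuvB, DREAM and E2F genes, 12 rose and 3 fell with nilotinib under hemin, E2F8 rising the most (2.47). In this list 6 rose and 4 fell with nilotinib alone, and 5 rose and 10 fell with hemin in DMSO. With hemin on top of nilotinib 2 rose and 0 fell. Among 15 inhibitors and cyclins of G1, 13 were tested. Of these, 4 rose and 5 fell with nilotinib under hemin (median log2 fold change -0.07), and 2 rose and 5 fell with nilotinib alone. With hemin in DMSO 6 rose and 1 fell (median -0.06), and with hemin on top of nilotinib 0 were called. The list as a whole thus had no common direction with nilotinib. Its member CDKN1A, the inhibitor p21, was at a mean of 27.7 CPM in mock DMSO, 13.8 in mock nilotinib, 356 in hemin DMSO and 17.9 in hemin nilotinib. It rose by 3.68 with hemin in DMSO (SE 0.20, adjusted p = 2.8e-09) and fell with nilotinib under hemin (log2 fold change -4.31 ± 0.20, adjusted p = 1.21e-10).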

How the data were processed

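RNA of 12 K562 cultures was sequenced by the study as paired reads of 150 bases. The deposited counts are whole numbers of fragments per gene made by the authors, and the deposited FPKM values are the authors' fragments scaled by gene length and library size. The submitters' processing notes name GRCh38.p12, DESeq2 and DESeq, the identifiers match GENCODE 29 (58724 of 58735 genes with the same start and end), and the aligner, the counter and the use of strand are not given in the sources used here. Without strand, reads of genes on opposite strands cannot be told apart. A table of the authors' mean FPKM per group was not used.

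Counts were tested with edgeR 4.0.16 (R 4.3.3): filterByExpr (minimum count 10, minimum total 15), TMM factors, 1 mean per group over all 12 libraries, and quasi-likelihood F tests with Benjamini-Hochberg adjustment over 20821 genes, called at an adjusted p under 0.05. SE is the absolute log2 fold change over the square root of F, and the biological coefficient of variation was 0.198. CPM are counts per 1000000 of the TMM-scaled library, and 3 counts correspond to 0.0540 to 0.0957 CPM. Replicates are separate biological samples per the labels. No exact permutation test was run, since 3 libraries against 3 cannot give a two-sided p below 0.1. The same steps were also run on simulated counts in which only a small share of genes changed, in hemin nilotinib alone. A far larger share was called in these data, so that run cannot test the choice of scaling factors. Its outcome is not given here. Among the groups compared, the replicate numbers were taken to pair mock DMSO with mock nilotinib and mock nilotinib with hemin nilotinib, where the deviations of same-numbered libraries from their group means correlated at 0.139 to 0.164 and 0.386 to 0.408, and not the hemin groups with each other (-0.0737 to 0.272) or the DMSO groups with each other (0.0888 to 0.143). Mock nilotinib and hemin DMSO, which were not compared, correlated at 0.104 to 0.162. The range of the mock groups overlaps this range and that of the DMSO groups, so the pairing of the mock groups is uncertain. Correlations of unlike-numbered libraries were not computed, and the main fit used no pairing.

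All 40 genes were counted in each comparison. Values were given for 11 core genes, for the 5 highest and 5 lowest log2 fold changes, for calls against the direction of most, and for calls in the interaction, and a few further values were added after they were seen. The genes, lists and roles were chosen with earlier results of these data known. Promoter motifs were counted by letters in RefSeq promoters, and no set was tested. Alternatives were DESeq2 1.42.0, other scaling factors, other filters, limma 3.58.1 on log2(FPKM + 1) and log2(FPKM + 0.1), the replicate block, the 6 libraries of a comparison alone and leaving out each library. Some genes of the marker lists and some overlapping genes are not reported here.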

Additional observations from a re-analysis of the deposited data

Results flagged for a closer look

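The effect of nilotinib differed between cells with and without hemin for 19 of the 40 genes, by the interaction term of edgeR's quasi-likelihood model (Benjamini-Hochberg adjusted p under 0.05 over all genes, 30.1% of all genes called). Each value is the log2 effect of nilotinib with hemin minus that without. At the kinetochore the difference was 2.15 for SPC24, 1.40 for CENPA and 1.36 for CENPF. Among spindle and division genes it was 1.84 for KIF20A, 1.28 for KIF2C, 1.10 for ECT2, 0.99 for KIF23, 0.82 for KIF4A, 0.75 for KIF11 and 0.59 for TPX2. Among the genes of entry it was 1.31 for CCNB1, 0.80 for CCNB2, 0.79 for CDC25B and 0.66 for CCNA2. In the checkpoint it was 1.09 for BUB1B and 0.78 for MAD2L1, and in the passenger complex 1.07 for INCENP and 0.81 for CDCA8. UBE2C alone of the 19 was lower, at -2.53, on few counts. CCNB1, CDC25B and CENPA passed as lower with nilotinib alone and as higher with nilotinib under hemin. With 3 libraries per group, no single library was tested as an outlier.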

How the results depend on the processing

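Of 2481 values of the named genes under alternatives, 2269 kept their direction and side of the threshold, 126 lost a call, 60 gained one and 26 changed sign, none of them called. With no composition factors the median of the 40 became 0.68 for nilotinib with hemin, -0.55 for hemin without nilotinib and 0.77 for the interaction, whose count rose to 31 of 40, while the median of all genes moved by 0.18, -0.24 and 0.21. In the interaction that fit called 6551 of all 20821 genes, and the main fit 6271. The count for hemin with nilotinib, 10, was 5 with limma on either FPKM scale, 2 with its 6 libraries alone, and 1 to 16 on leaving out each library. Of all genes tested, 1208 were called in the main fit, 741 and 694 with limma and 183 with the 6 libraries. On leaving out each library 213 to 2793 of all genes were called. The ends of both ranges do not go together. Without hemin nilotinib replicate 3, 16 of the 40 and 834 of all genes were called. Without hemin nilotinib replicate 1, 10 of the 40 and 2793 of all genes were called. The interaction median ranged from 0.49 to 0.73 on leaving out each library.

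A replicate block in the fit gave 26 genes called for nilotinib with hemin, 14 for nilotinib without hemin, 25 for hemin without nilotinib, 13 for hemin with nilotinib and 22 for the interaction. In that order the block called 13657, 9294, 11611, 1587 and 6845 of all 20821 genes. The main fit called 13359, 8851, 11156, 1208 and 6271, so the calls over all genes rose as well. In the comparisons taken as paired the block changed no call beyond BUB1, PLK1, KIF23 and PTTG1.

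The sign changed with no composition factors for AURKA (0.018) and CDC20 (0.025) with nilotinib under hemin, PLK1 (-0.033) and CDC20 (-0.044) with hemin in DMSO, and NDC80 (0.098), NUF2 (0.093) and PTTG1 (0.069) in the interaction. It changed with upper-quartile factors for KIF2C (0.025) and ECT2 (0.058) with nilotinib alone. BUB3 in the interaction was at -0.037 with DESeq2 and with RLE factors, -0.11 with upper-quartile factors, -0.031 and -0.032 with limma, and -0.068 to 0.17 on leaving out a library. On leaving out a library, values also crossed 0 for ECT2 (-0.12 to 0.0028, nilotinib alone), FOXM1 (-0.29 to 0.081), UBE2C (-0.039 to 0.76), CCNB2 (-0.017 to 0.28) and PLK4 (-0.073 to 0.25) with hemin on top of nilotinib, and NDC80 (-0.17 to 0.026) and NUF2 (-0.20 to 0.010) in the interaction. The cause was not tested. Counts of UBE2C, 6 to 283, and of PRC1 limit the precision of both.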
